A study of Mus musculus with 2 samples.

Results

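The MEIS, PBX, PKNOX and TGIF proteins are DNA-binding cofactors of the TALE homeodomain class. The 9 genes Meis1, Meis2, Meis3, Pbx2, Pbx3, Pbx4, Pknox1, Pknox2 and Tgif1 were described here in the mouse embryonic face. They were selected by gene symbol, through the Ensembl ID of each row. The rule itself uses no measured value, but the list was chosen with earlier results of these data known. They are 9 of 43346 mouse gene IDs in the deposited tables. The libraries were total RNA-seq of the facial prominence, the tissue of the swellings that form the face, from healthy B6NCrl mouse embryos at embryonic day 12.5. Replicate 1 pooled 120 embryos and replicate 2 pooled 88, with both sexes mixed in each pool and no genetic change or treatment named. There was 1 group, so no contrast between conditions exists, and the comparisons are between genes, between transcripts and between the 2 libraries. A pool of embryos averages over animals and over the swellings, and all cell types of the dissected tissue are mixed in it, so fewer cells of a type and less RNA per cell cannot be told apart.

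TALE homeodomains carry a short insertion, the 3-residue loop, between the first and second helices. PBX proteins bind DNA together with HOX proteins, and MEIS and PKNOX proteins bind PBX proteins and hold them in the nucleus, so that trimeric complexes form on regulatory DNA. TGIF1 lacks this partnership with PBX and is known as a repressor that limits SMAD and retinoid signalling. Mouse mutants of Meis2 and of Pbx genes have defects of the face and palate, and human TGIF1 variants are linked to holoprosencephaly, a defect of the forebrain and midface.

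The insertion defines the class, so it is shown for all 9 genes, with the 9 bases of the loop codons in capitals inside 27 bases of homeobox on each side. The sequences are coding exon bases read 5′ to 3′ on the gene's own strand from GENCODE M21 transcripts (GRCm38, mm10). The capitals lie at chr11:18905754-18905762 (minus strand) in Meis1, chr2:115921737-115921745 (minus) in Meis2, chr7:16183794-16183802 (plus) in Meis3, chr17:34594655-34594663 (plus) in Pbx2, chr2:34204834-34204842 (minus) in Pbx3, chr8:69866541-69866549 (plus) in Pbx4, chr17:31602789-31602797 (plus) in Pknox1, chr9:36895376-36895384 (minus) in Pknox2 and chr17:70846226-70846234 (minus) in Tgif1.
Meis1: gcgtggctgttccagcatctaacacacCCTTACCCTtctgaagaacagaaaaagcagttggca
Meis2: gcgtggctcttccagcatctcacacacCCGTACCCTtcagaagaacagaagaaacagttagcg
Meis3: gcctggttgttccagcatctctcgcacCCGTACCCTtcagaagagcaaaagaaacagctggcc
Pbx2: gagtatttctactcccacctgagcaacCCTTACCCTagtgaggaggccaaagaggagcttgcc
Pbx3: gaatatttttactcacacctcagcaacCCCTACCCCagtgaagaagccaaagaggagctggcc
Pbx4: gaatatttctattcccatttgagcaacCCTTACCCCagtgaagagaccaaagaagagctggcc
Pknox1: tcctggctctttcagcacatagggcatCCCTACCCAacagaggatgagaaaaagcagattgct
Pknox2: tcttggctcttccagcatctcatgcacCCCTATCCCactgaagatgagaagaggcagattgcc
Tgif1: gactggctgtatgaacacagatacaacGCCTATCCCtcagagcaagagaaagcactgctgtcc
Over the whole 189-base homeobox, identity was 82.0% to 84.7% among the 3 Meis genes, 79.4% to 82.5% among the 3 Pbx genes and 78.3% between the Pknox genes. It was 65.1% to 71.4% between Meis and Pknox genes, and 44.4% to 53.4% between Meis and Pbx genes. Tgif1 shared between 46.6% and 57.1% of these bases with the other 8 genes. The homeobox was split over 3 exons in 8 genes and over 2 exons in Tgif1.

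All 9 genes were transcribed at readily measured levels in both libraries. Each reached 1 TPM or more in both, against 61.8% of protein-coding genes and 48.4% of the 186 other homeobox genes that were listed and measured. TPM is a length-adjusted share of the library's transcripts, so it can be compared between genes. Each of the 9 also had a mean of 10 TPM or more, against 42.4% of protein-coding genes. The median over the 9 means was 32.2 TPM, against 5.24 TPM over protein-coding genes and 1.2 TPM over the other homeobox genes. Values after ± are SD over the 2 libraries (n = 2) throughout. The tables summed to 27890681 expected counts for replicate 1 and 39969716 for replicate 2, and the members' own counts ran from 143 for Pbx4 in replicate 1 to 6394 for Meis1 in replicate 2.

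**Figure D1:**
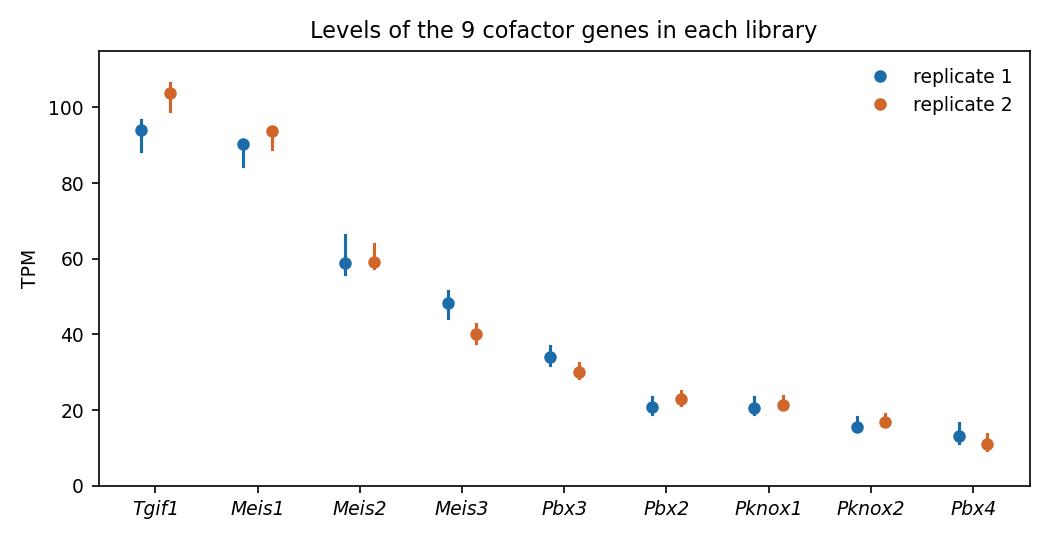
TPM of each gene (y axis) in replicate 1 and replicate 2 (points), with the deposited interval of each value (lines). The order runs from Tgif1, at 94.09 and 103.84 TPM, down to Pbx4, at 13.26 and 11.01 TPM, and the intervals of the 2 libraries lie apart for Tgif1 and Meis3.

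Among the Meis genes, whose products bind PBX partners and extend the DNA contact of HOX and PBX pairs, Meis1 was the most abundant. Meis1 (chr11:18879817-19018985, minus strand, mm10) measured 90.40 TPM in replicate 1 and 93.75 TPM in replicate 2, a mean of 92.1 ± 2.37. Meis2 (chr2:115863064-116065839, minus) measured 58.80 and 59.13 TPM, a mean of 59.0 ± 0.233. Meis3 (chr7:16175090-16186504, plus) measured 48.25 and 40.10 TPM, a mean of 44.2 ± 5.76. The 3 genes did not overlap: the lower Meis1 library lay above both Meis2 libraries, and the lower Meis2 library lay above both Meis3 libraries. The log2 ratio of Meis2 to Meis1 was -0.64 ± 0.03, and that of Meis1 to Meis3 was 1.07 ± 0.23. The latter was 0.91 in replicate 1 and 1.23 in replicate 2, so it passed a difference of 1 on the log2 scale in replicate 2 alone.

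The Pbx genes, which encode the partners that contact HOX proteins directly, lay lower than the Meis genes in TPM. Pbx3 (chr2:34171457-34373142, minus) measured 34.15 and 30.17 TPM, a mean of 32.2 ± 2.81. Pbx2 (chr17:34591266-34597400, plus) measured 20.82 and 22.92 TPM, a mean of 21.9 ± 1.48. Pbx4 (chr8:69832491-69872292, plus) measured 13.26 and 11.01 TPM, a mean of 12.1 ± 1.59. The order Pbx3, Pbx2, Pbx4 held in both libraries with no overlap. The log2 ratio of Pbx3 to Pbx2 was 0.56 ± 0.22, that of Pbx2 to Pbx4 was 0.85 ± 0.29, and that of Meis2 to Pbx3 was 0.88 ± 0.13. Pbx4 rested on 143 and 171 expected counts, the fewest of the 9 genes.

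The Pknox genes, also called Prep genes, encode PBX-binding proteins that occupy the same position in the complex as MEIS proteins. Pknox1 (chr17:31564734-31607693, plus) measured 20.49 and 21.39 TPM, a mean of 20.9 ± 0.636. Pknox2 (chr9:36890982-37147407, minus) measured 15.45 and 16.96 TPM, a mean of 16.2 ± 1.07. Both Pknox1 libraries lay above both Pknox2 libraries, with a log2 ratio of 0.37 ± 0.05. Meis1 exceeded Pknox1 by 2.14 ± 0.01 on the log2 scale, a 4.40-fold difference that was nearly equal in the 2 libraries.

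Tgif1, the repressor of the set, was its most abundant member by mean TPM. It measured 94.09 and 103.84 TPM, a mean of 99.0 ± 6.89 (chr17:70844205-70853546, minus). Its lower library was above the higher Meis1 library by a narrow margin, 94.09 against 93.75 TPM. Its close relative Tgif2 measured 74.15 and 78.43 TPM, and the log2 ratio of Tgif1 to Tgif2 was 0.37 ± 0.04. In depth-scaled counts not divided by gene length that ratio was -0.38, the opposite direction. Of the 8 adjacent steps in the order of the 9 genes, 7 separated all libraries of the higher gene from all libraries of the lower one. The exception was Pbx2 and Pknox1, whose means differed by 1.04-fold and whose libraries overlapped. With TPM rescaled to leave out spike-ins 6 steps separated, since Tgif1 (101 and 112 TPM) and Meis1 (97.1 and 101 TPM) then overlapped. In depth-scaled counts not divided by length 5 steps separated, and Meis1 and Meis2 lay above Tgif1.

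Among 195 listed homeobox genes ranked by mean TPM, all 9 genes were within the first 51. This holds per length: in depth-scaled counts not divided by length Pbx4 was at rank 82, Meis3 at rank 31 and Tgif1 at rank 14, against 51, 18 and 6 by TPM. Tgif1 was at rank 6, between Pitx1 (105 TPM) and Prrx2 (94.2 TPM), and Meis1 at rank 8, between Prrx2 and Tgif2 (76.3 TPM). Meis2 was at rank 14, next above Lhx8 (55.2 TPM), and Meis3 at rank 18, next above Isl1 (41.4 TPM). Most of these neighbours are known as patterning genes of the head or of cranial tissues. Pbx3 was at rank 24, between Zfhx4 (33.9 TPM) and Six2 (29.4 TPM), and Pbx2 at rank 32, between Zeb1 (23.1 TPM) and Alx4 (21.5 TPM). Pknox1 was at rank 35, between Dlx2 (21.3 TPM) and Isl2 (20.1 TPM), and Pknox2 at rank 42, between Satb1 (16.5 TPM) and Lhx6 (15.6 TPM). Pbx4 was at rank 51, between Adnp (12.6 TPM) and Hmx1 (11.9 TPM). With 2 libraries no correlation of patterns could be computed, so these neighbours share a level only.

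**Figure D2:**
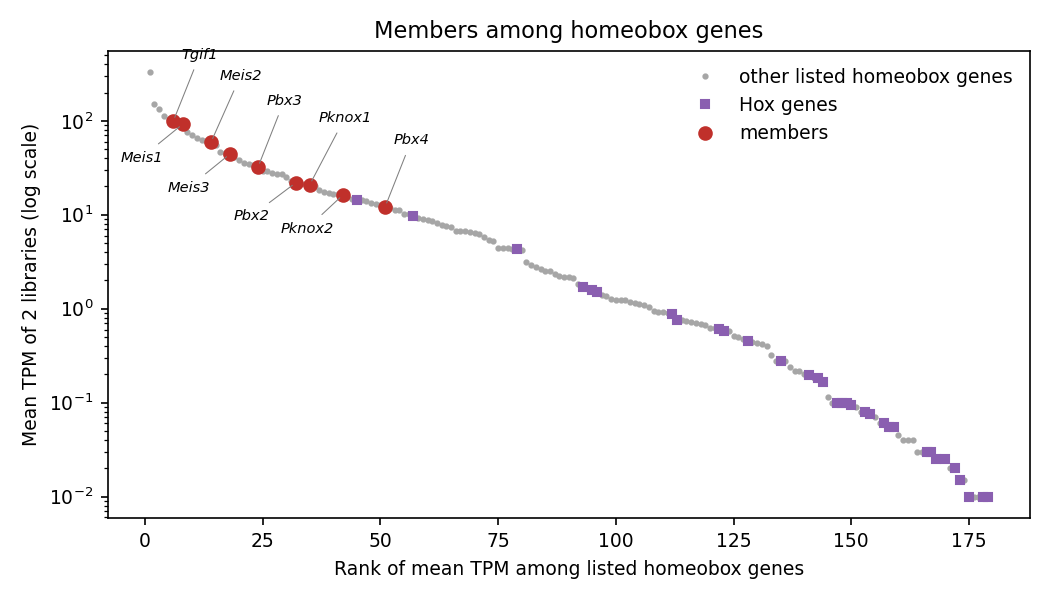
Mean TPM over the 2 libraries (y axis, log scale) against rank among the listed homeobox genes with a mean above 0 (x axis), with the 9 members in red and Hox genes as squares. The members lie between ranks 6 and 51, and 1 Hox gene, Hoxa2 at 14.2 TPM, lies among them.

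Hox genes, the textbook partners of PBX and MEIS proteins, were low in this tissue. Of 12 genes in Hox paralog groups 1 to 4, 4 reached 1 TPM or more in both libraries, with a median of 0.688 TPM. The highest were Hoxa2, a patterning gene of the second pharyngeal arch, at 12.95 and 15.53 TPM, and Hoxd1, at 9.77 and 9.84 TPM. The lowest detected was Hoxa4, at 0.08 ± 0.0424 TPM. Of 27 genes in groups 5 to 13, 1 reached 1 TPM in both libraries and 16 were under 3 expected counts in both, the limit that a count of 0 allows. The highest of these groups were Hoxd8 (1.29 and 2.15 TPM) and Hoxc5 (0.99 and 1.99 TPM), and the lowest detected was Hoxa11, at 0 and 0.06 TPM. The 3 Meis genes together reached 197 and 193 TPM in replicates 1 and 2. All 39 Hox genes together summed to 33.9 and 42.4 TPM, so the Meis sum was 5.83 and 4.55 times as high. Meis2 exceeded Hoxa2 by 2.06 ± 0.18 on the log2 scale, and Pbx2 exceeded it by 0.62 ± 0.09. Of the 10 gene pairs compared, Meis1 with Meis3, Meis1 with Pknox1 and Meis2 with Hoxa2 had a mean log2 ratio above 1, and the other 7 did not. Of those 7, Pbx2 with Pbx4 was at 1.06 in replicate 2, and in depth-scaled counts not divided by length it was at 2.88, Meis2 with Pbx3 at 1.34 and Pbx2 with Hoxa2 at 1.30.

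Other DNA-binding partners were present at uneven levels. Of 9 listed proteins outside the Hox family that are known to bind DNA with PBX or MEIS, 7 were at 1 TPM or more in each library, and En2 and Pdx1 were under 3 expected counts in both. Myod1, the muscle determination factor, was highest at 22.60 and 23.75 TPM, and Pax6, an eye and brain regulator, followed at 11.32 and 17.11 TPM. The lowest detected was En1, at 1.20 and 1.28 TPM. Among 8 further TALE genes 7 reached 1 TPM in both libraries. Tgif2 was the highest and Irx3 the next, at 30.19 and 40.35 TPM, and Irx6 was the lowest, at 0.51 TPM in each library.

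Regulators that bind these cofactors were all measured above 1 TPM in both libraries. Of 7 listed regulators of PBX and PKNOX proteins, Hdac1 and Hdac3, both histone deacetylases, were the highest at 206 ± 3.62 and 135 ± 0.721 TPM. Zfp462, a zinc finger protein, was the lowest at 9.34 ± 0.926 TPM. Of 8 listed partners of TGIF1, Ctbp1, a corepressor, was highest at 284 ± 4.85 TPM, followed by Hdac1, and Rxra, a retinoid receptor, was lowest at 12.7 ± 0.665 TPM.

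Retinoic acid signalling, which TGIF1 is known to limit, was represented by most of its listed genes. Of 13 retinoic acid pathway genes 12 reached 1 TPM in both libraries, led by the binding proteins Crabp1 (476 ± 37.7 TPM) and Crabp2 (392 ± 7.18 TPM). Cyp26c1, a retinoic acid-degrading enzyme, was the lowest at 0.865 ± 0.0495 TPM.

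Gene totals did not show which transcripts carry the homeobox, so each gene was divided into its annotated transcripts. The 9 genes had 92 transcripts in the tables, of which 13 were at 0 in both libraries and 22 held a mean share of 10% or more of their gene's TPM. These shares are estimates that divide reads among transcripts with common exons. None of the 22 had deposited intervals that lay apart between the libraries, against 7.48% of transcripts with such a share in protein-coding genes of 1 TPM or more. For 8 genes more than 50% of TPM was in transcripts whose annotated coding sequence holds the homeobox. The shares were 94.3 ± 2.20% for Pbx2, 90.9 ± 0.506% for Tgif1, 89.2 ± 0.116% for Pknox2, 84.2 ± 2.67% for Pknox1, 77.0 ± 1.21% for Pbx3, 75.3 ± 1.80% for Meis2, 69.3 ± 2.83% for Meis3 and 54.4 ± 0.824% for Meis1. The Meis1 share includes Meis1-202 (5.85 ± 2.91%), which is annotated as a target of nonsense-mediated decay, the pathway that removes RNAs with early stop codons. Transcripts of the protein-coding class alone held 48.6 ± 2.09% of Meis1.

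Pbx4 differed from this: 2.36 ± 1.42% of its TPM was in a transcript that codes for the homeodomain. That transcript, Pbx4-201, with 378 codons, measured 0.18 TPM in replicate 1 and 0.37 TPM in replicate 2, on 4.72 and 13.55 expected counts. Its deposited intervals ran from 0.0301 to 0.563 TPM and from 0.118 to 0.769 TPM. The leading Pbx4 transcript, Pbx4-205, is also annotated as a target of nonsense-mediated decay. It has 86 codons without the homeobox and held 33.6 ± 1.78% of the gene's TPM. Pbx4-202, with 108 codons and an incomplete end, held 26.7 ± 2.38%. All transcripts of the decay class together held 49.4 ± 1.20%, and retained-intron transcripts held 16.6 ± 2.05%. Counting every transcript that contains the homeobox bases, coding or not, raised the Pbx4 share to 9.56 ± 3.10%, against 75.8 ± 1.66% to 94.3 ± 2.20% in the other 8 genes. As annotated, the gene total of 12.1 TPM for Pbx4 included 0.275 TPM of homeobox-coding RNA. Whether RNA assigned to the 375-base Pbx4-202 came from longer transcripts was not tested. As a share of expected counts, which weights longer transcripts more, the homeobox-coding part of Pbx4 was 5.61%. Both libraries showed this, although the estimate rests on few reads.

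**Figure D3:**
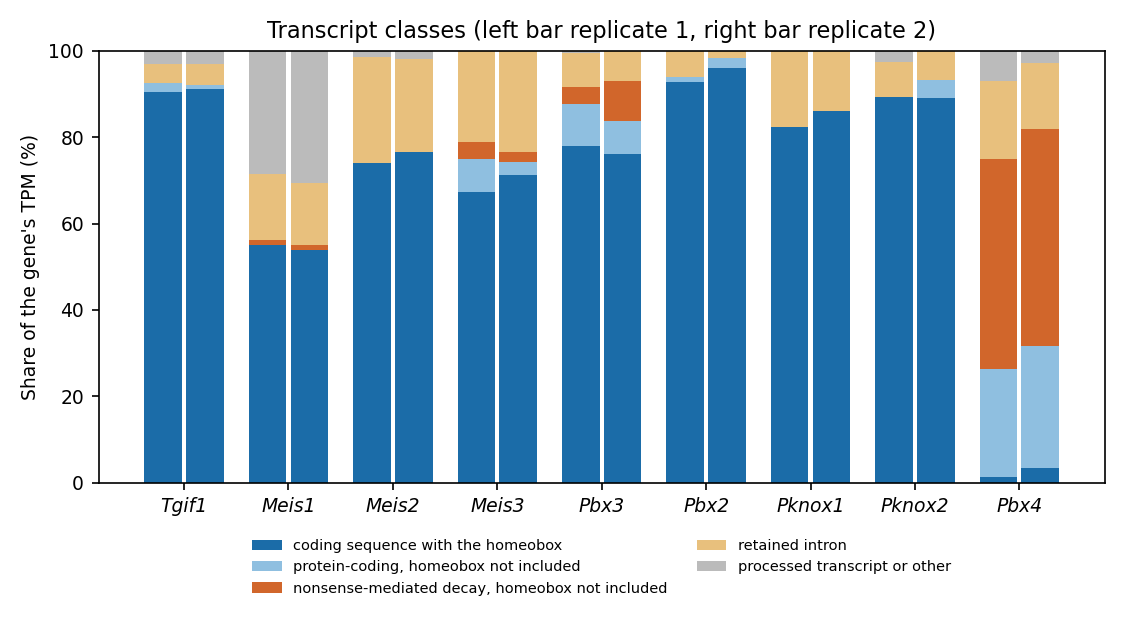
Share of each gene's TPM (y axis, percent) by annotated transcript class, with replicate 1 as the left bar and replicate 2 as the right bar. The homeobox-coding class (dark blue) takes 53.8% or more of 8 genes in each library, and 1.36% and 3.37% of Pbx4.

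The order of the genes by homeobox-coding RNA had Tgif1 first, at 85.18 and 94.74 TPM, followed by Meis1 at a mean of 50.1, Meis2 at 44.4, Meis3 at 30.5, Pbx3 at 24.8, Pbx2 at 20.6, Pknox1 at 17.7, Pknox2 at 14.5 and Pbx4 at 0.275 TPM. The gap between Tgif1 and Meis1 was wider on this scale than for gene totals. In Meis1 a further 29.6 ± 1.52% was in Meis1-203, a processed transcript with no annotated coding sequence that nevertheless contains the homeobox bases. With it, the share of Meis1 in transcripts with these bases was 84.1 ± 0.694%.

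The leading transcripts coded for the homeodomain in all genes but Pbx4. Meis1-201 held 42.1 ± 2.31% of Meis1, Meis3-201 held 54.0 ± 2.18% of Meis3, and the retained-intron Meis3-202 and the coding Meis3-205 held 15.8 ± 1.57% and 15.3 ± 0.651%. Meis2 was the most divided gene, with 6 transcripts of 10% or more. Meis2-206 led with 31.3% in replicate 1 and 18.0% in replicate 2, a mean of 24.7 ± 9.40%. The others were Meis2-201 (14.0 ± 2.21%), a retained-intron transcript (13.1 ± 0.702%), Meis2-203 (11.2 ± 3.26%), Meis2-205 (10.9 ± 5.67%) and Meis2-202 (10.1 ± 0.426%). The gene total of Meis2 was almost equal in the 2 libraries while the estimated share of Meis2-206 was not. The deposited intervals of Meis2-206 overlapped, however, at 10.9 to 22.4 TPM in replicate 1 and 4.27 to 18.1 TPM in replicate 2. Those of Meis2-201, Meis2-203 and Meis2-205 began below 1 TPM and passed 10 TPM in replicate 1. The division among these transcripts is thus loosely resolved.

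In the Pbx genes, Pbx2-201, with 430 codons, held 68.3 ± 7.35% of Pbx2, and Pbx2-203, with 348 codons, held 23.7 ± 6.27%. Pbx3-202, with 351 codons, held 61.4 ± 2.73% of Pbx3, and the longer Pbx3-201, with 434 codons, held 15.6 ± 3.94%. The Pbx3 transcript with the shorter coding sequence was thus the more abundant of the pair in both libraries. In the Pknox genes, Pknox1-201 held 76.1 ± 2.17% and the retained-intron Pknox1-206 held 10.8 ± 0.797% of Pknox1. Pknox2-201 held 57.1 ± 7.49% and Pknox2-202 held 27.7 ± 13.8% of Pknox2, and both have 474 codons. Tgif1-201, with 272 codons, held 66.7 ± 2.43% of Tgif1.

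Annotated splice forms of Meis1, Meis2, Meis3 and Pbx3 differ in coding segments outside the homeobox, which are shown because a share could be given for each. Capitals mark the coding bases of the alternative segment, and lower case marks 21 neighbouring coding bases. The Meis1 and Meis2 segments are the final 56 coding bases of paralogous 95-base exons (chr11:18883988-18884082 and chr2:115866810-115866904, both minus), for which only the coding part is printed. The in-frame segments are at chr2:115867359-115867379 (minus) in Meis2 and chr7:16178951-16179001 (plus) in Meis3, and the Pbx3 exon is at chr2:34176749-34176861 (minus).
Meis1 coding end: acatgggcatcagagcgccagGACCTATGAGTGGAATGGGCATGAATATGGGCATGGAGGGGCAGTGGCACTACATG
Meis2 coding end: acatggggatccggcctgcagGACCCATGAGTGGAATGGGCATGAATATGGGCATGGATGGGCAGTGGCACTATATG
Meis2 in-frame segment: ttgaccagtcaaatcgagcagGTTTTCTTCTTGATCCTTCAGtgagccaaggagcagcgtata
Meis3 in-frame segment: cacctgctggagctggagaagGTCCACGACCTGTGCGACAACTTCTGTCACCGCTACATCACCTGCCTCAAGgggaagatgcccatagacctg
Pbx3 exon: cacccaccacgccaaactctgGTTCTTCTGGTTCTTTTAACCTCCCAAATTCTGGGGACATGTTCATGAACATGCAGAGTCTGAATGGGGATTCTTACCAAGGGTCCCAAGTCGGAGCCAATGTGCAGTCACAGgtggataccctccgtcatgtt
The Meis1 and Meis2 coding ends were identical at 53 of 56 bases, or 94.6%. The differences, with the Meis1 base first and positions counted from 1 at the first capital, were T5C, G38T and C53T.

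Within homeobox-coding transcripts, the exon with this coding end was included in most Meis1 RNA and in less of the Meis2 RNA. Its share was 85.5% and 81.9% in Meis1, a mean of 83.7 ± 2.54%. In Meis2 it was 71.2% and 62.1%, a mean of 66.7 ± 6.47%. Both Meis1 libraries lay above both Meis2 libraries. The Meis1 RNA without it was in 2 transcripts, Meis1-202 of the decay class (7.15 and 3.55 TPM) and Meis1-209 (0.07 and 5.59 TPM). The deposited intervals of Meis1-209 ran from 3.54e-05 to 3.90 TPM and from 1.62 to 9.20 TPM. The Meis1 share is thus loosely estimated. The 21-base in-frame segment of Meis2 was included in 32.5% and 45.3%, a mean of 38.9 ± 9.05%. Most Meis2 RNA was thus estimated to lack it in each library. Both Meis2 shares rest on transcripts with wide deposited intervals, such as 0.123 to 10.4 TPM for Meis2-205 in replicate 1. The 51-base segment of Meis3 was included in 77.9 ± 0.0379%, nearly the same value in each library. The 113-base exon of Pbx3, whose length is not a multiple of a codon, was included in 23.6% and 16.8%, a mean of 20.2 ± 4.80%, and its absence gives the 351-codon form.

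**Figure D4:**
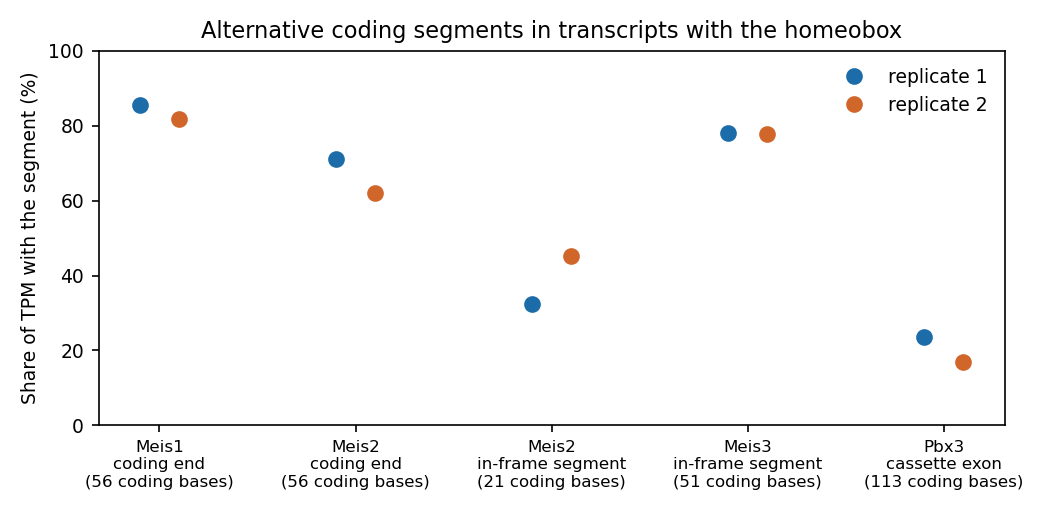
Share of TPM in homeobox-coding transcripts that includes each alternative segment (y axis, percent), with 1 point for each library. The Meis1 coding end lies at 85.5% and 81.9%, above the Meis2 coding end at 71.2% and 62.1%, and the Pbx3 exon lies at 23.6% and 16.8%.

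The 9 genes differed by up to 0.26 on the log2 (TPM + 1) scale between the libraries. None differed by more than 1 on this scale. Of 13490 protein-coding genes with a mean of 1 TPM or more 0.252% did, so this does not set the 9 genes apart. The differences, replicate 2 minus replicate 1, ran from -0.26 for Meis3 to 0.14 for Tgif1, and 6 genes were higher in replicate 2 and 3 in replicate 1. Their median size was 0.13, against 0.08 over protein-coding genes. The deposited intervals lay apart in 2 of 9 genes, Meis3 and Tgif1, against 11.8% of the protein-coding genes. With 2 libraries of 1 group this is a comparison of libraries, with no replicate behind either.

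The genes lower in replicate 2 were Meis3, Pbx4 and Pbx3, with log2 differences of -0.26, -0.25 and -0.17. As a ratio of expected counts, replicate 2 over replicate 1 after scaling to depth, Meis3 was at 0.864 (95% counting interval 0.801 to 0.931), Pbx3 at 0.866 (0.806 to 0.930) and Pbx4 at 0.834 (0.664 to 1.05). Tgif1 was at 1.11 (1.06 to 1.17) in the other direction, and the intervals of the remaining 5 genes included 1. The interval excluded 1 in 3 of 9 members, Meis3, Pbx3 and Tgif1, against 29.5% of the protein-coding genes, a share near the background. Such intervals hold the error of counting alone and leave out variation between pools and libraries. How PCR copies of a molecule were handled is not stated in the sources used here. If they were counted as separate reads, the intervals can be too narrow even for counting.

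Markers of some cell types moved between the libraries as well. All 5 neuron markers were lower in replicate 2, with a summed level of 490 TPM in replicate 1 and 368 TPM in replicate 2, and all 3 lens markers were higher, with 177 and 416 TPM. All 4 muscle markers were higher in replicate 2 (349 and 413 TPM) and 3 of 4 forebrain markers lower (28.0 and 22.4 TPM). All 4 erythroid markers were lower in replicate 2, with 9240 and 8388 TPM in sum. The 6 mesenchyme markers, which define the main tissue of the facial swellings, summed to 833 and 872 TPM, and the 5 epithelium markers to 262 and 259 TPM. Every listed marker reached 1 TPM in both libraries, so none of these cell types was absent. The part of such cells in the values of Meis3, Pbx3, Pbx4 and Tgif1 was not tested.

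**Figure D5:**
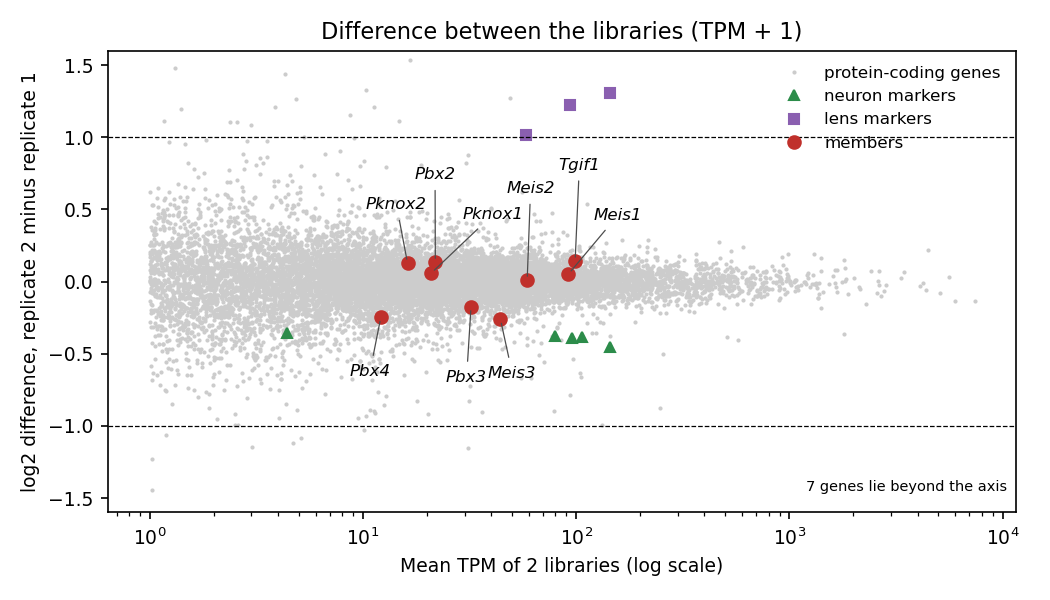
Difference of log2 (TPM + 1), replicate 2 minus replicate 1 (y axis), against mean TPM (x axis, log scale) for protein-coding genes (grey), neuron markers (triangles), lens markers (squares) and the 9 members (red), with dashed lines at 1 and -1. The members lie between -0.26 for Meis3 and 0.14 for Tgif1, inside both lines, and the 5 neuron markers lie below 0.

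Other annotated genes overlap 4 members with reads in the tables. No label states whether strand was recorded, so reads of a gene and an antisense partner cannot be told apart. Within Meis1, the antisense gene Gm16141 measured 16.48 and 15.42 TPM and Gm16140 measured 2.57 and 2.04 TPM. On the same strand within Meis1, 2610001A08Rik measured 4.92 and 3.94 TPM, Gm37818 measured 1.64 and 1.59 TPM, and 2900018N21Rik measured 0.54 and 0.38 TPM. Gpsm3, a protein-coding gene on the same strand that overlaps Pbx2, measured 5.29 and 2.94 TPM. Meis1 and Pbx2 were also the 2 members with fractional gene counts, which arise when reads are shared with another gene. The antisense genes at Pbx3 (C79798, 0.17 and 0.14 TPM) and Pknox2 (Gm3896, 0.30 and 0.24 TPM) were low.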

How the data were processed

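RNA from pooled E12.5 facial prominences was measured in 2 libraries of 1 group, which the labels number as biological replicates. Reads were assigned on mm10 with GENCODE M4, per the deposited notes, and which aligner and quantifier were run is not given in the sources used here. Per the file headers, the deposited values per gene and transcript are an expected count (estimated, with reads shared among matches), TPM, a posterior mean TPM, FPKM (used as an alternative), and interval bounds, a signal on the TPM scale whose level is not stated. The deposited isoform percent was read but shares were computed from TPM. Names, classes, coordinates and sequences came from GENCODE M21, the same build. Of the 92 transcripts, 85 had the same length in both releases and 1 was not in M21. Pknox1 and Pknox2 hold the others.

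Levels are TPM. Ratios used log2 (TPM + 0.01) and library differences log2 (TPM + 1), with 1 as the threshold. Expected counts were rounded for edgeR 4.0.16 (R 4.3.3), used for TMM scaling and the common coefficient of variation, 0.0628, with no gene test, since 1 group allows none. The other steps ran in Python 3.11.15 with scipy 1.17.1, and of these only the library difference was tested on simulated counts. The homeobox was located in each coding sequence as a window of 63 codons. Named were the 9 genes, genes of 10 pairs, the 2 highest and the lowest detected gene of each other list, transcripts with a mean share of 10% or more, and neighbours by rank. A gene list and some of these neighbours are not reported here. Drgx, of the homeobox list, had no matching symbol. The alternative coding segments were picked after transcript shares were seen, and the members and lists were chosen with earlier results of these data known. Alternatives were other units and scalings, pseudocounts, minimum levels and leaving out each replicate.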

Additional observations from a re-analysis of the deposited data

How the results depend on the processing

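With 2 libraries, the spread is known from 1 difference per gene, and the counts of genes at 1 and 10 TPM were each within 1.5 times their reported values under every minimum, unit and left-out replicate tried. The log2 ratio of Meis1 to Meis3 ran from 0.91 to 1.23 without a replicate, so it fell under 1 without replicate 2, and that of Pbx2 to Pbx4 ran from 0.65 to 1.06, so it passed 1 without replicate 1. In depth-scaled counts with TMM factors, not divided by gene length, the log2 ratio of Pbx2 to Pbx4 was 2.88, that of Meis2 to Pbx3 1.34, that of Pbx2 to Hoxa2 1.30, and that of Tgif1 to Tgif2 reversed to -0.38. The library difference of Meis2 was near 0 and changed sign in posterior mean TPM (-0.0047) and FPKM (-0.0065). In shares of expected counts, which weight long transcripts, the leading transcript held 47.4% of Meis1, 57.8% of Meis3, 80.0% of Pbx2, 70.1% of Pbx3, 44.9% of Pbx4 and 88.7% of Pknox1. On that scale, in an alternative chosen after seeing the data, the homeobox-coding share was 5.61% in Pbx4 and 64.8% in Meis1. Transcript shares in Pbx4 rest on few counts, which limits their precision. No paired analysis was possible because there is 1 group.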
